A study of Mus musculus with 11 samples.

Results

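Collagens are the proteins of the extracellular matrix whose chains wind around each other in threes, and each chain has its own gene. The collagen genes studied here are the 43 rows of the adrenal count table whose symbol has the form Col, a type number, a and a chain number. Of these, 37 had 10 or more counts in at least 5 of the 11 libraries and were followed, out of 23337 gene symbols in the table. They comprise 9 fibrillar chains, 6 basement membrane chains (all of type IV) and 22 other chains. The remaining 6 were close to silent: Col2a1, Col9a1, Col10a1, Col17a1, Col19a1 and Col24a1 had between 1 and 40 counts each over all libraries. All 37 followed genes also passed the filter of the test, and 34 of them reached 10 counts in every library, so none entered through only one of the groups.

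The adrenal RNA came from males of Hsd:Athymic Nude-Foxn1nu, a mouse strain that lacks a functional thymus and accepts human grafts. Every animal, control or not, had been inoculated with VCaP cells, a human prostate cancer line, at study week 0 and an age of about 5 to 6 weeks. At week 7 the mice were allocated to the Intact group (5 samples, intact 1 to 5) or to the Orchectomized group (6 samples, ORX 1 to 6), whose testes were removed. Tissue was taken in week 15. The labels do not say whether a sample is 1 gland, 1 mouse or a pool, so p-values measure only the spread between samples.

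Fibrillar collagens (types I, II, III, V, XI, XXIV and XXVII) form the tensile fibres of connective tissue, which in the adrenal lie in the outer capsule and along vessels. Type IV chains form the sheet-like network of basement membranes, on which endothelial cells rest, and in the cortex nearly every cell column borders such a capillary. The other classes decorate fibrils (FACIT collagens), form beaded filaments (type VI), link basement membranes to their surroundings (types VII, XV and XVIII), build short-chain networks (types VIII and X) or span the cell membrane (types XIII, XVII, XXIII and XXV).

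Libraries held 11368447 to 15029582 counts. Values are CPM, counts scaled to a common library size by TMM, and changes are log2 fold changes of ORX against intact with their standard errors. Genes passed at a Benjamini-Hochberg adjusted p under 0.05 over 14139 tested genes (edgeR's quasi-likelihood test, two-sided). Markers of the adrenal cortex summed to 37332 to 97983 CPM, and those of the kidney to at most 2.44 CPM, with the kidney marker Umod at 0 in every library. ORX 6 stood apart in transcript length: against the other ORX libraries, the median log2 difference was 0.73 for the 10% of genes with the shortest transcripts and -0.67 for the 10% with the longest. Collagen transcripts are long (median 6450 bases), so values are also given without ORX 6 where the call of a chain rests on it.

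The chromosomal arrangement of the collagen genes is shown first, because chains that share a trimer often share a locus. All 6 type IV genes lie in head-to-head pairs, transcribed away from each other. Col4a3 and Col4a4 are 71 bases apart on chromosome 1, and Col4a5 and Col4a6 are 1308 bases apart on the X chromosome. The first exons of Col4a1 (chromosome 8, 11198423 to 11312826, minus strand, GRCm38) and Col4a2 (chromosome 8, 11312805 to 11449287, plus strand) overlap by 22 bases, which are printed here because reads from them could belong to either gene. These are 0.295% of the exonic bases of Col4a1 and 0.332% of those of Col4a2. The sequence is from RefSeq (GRCm38.p6), on the plus strand, with no base set in capitals.
Col4a1 and Col4a2 start overlap, chr8:11312805-11312826: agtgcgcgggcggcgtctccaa

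Col8a1 and Col28a1 are the collagen genes that kept their call whichever single library was left out (values below). The 100 bases before the start of each are printed, on the strand of the gene, from RefSeq (GRCm38.p6). Capitals mark GGGCGG, the GC box, on either strand, here in its reverse form; CCAAT and TATAAA were searched on both strands too, each on its own, whether or not matches overlapped. In the 250 bases before the start, GGGCGG was found in 22 of 32 collagen windows (30 of the 37 genes had a window) and in 32.7% of all 32851 windows, CCAAT in 11 of 32 and 33.8%, and TATAAA in 3 of 32 and 12.4%. Col8a1 held GGGCGG, and Col28a1 held none of the 3 motifs.
Col8a1, chr16:57754738-57754837, minus strand: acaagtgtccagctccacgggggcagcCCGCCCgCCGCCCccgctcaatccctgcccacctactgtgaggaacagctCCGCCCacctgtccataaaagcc
Col28a1, chr6:8192618-8192717, minus strand: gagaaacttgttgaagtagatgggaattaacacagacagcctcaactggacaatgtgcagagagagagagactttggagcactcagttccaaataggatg

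Collagen genes were on the whole less expressed in ORX. Of the 37 chains 6 fell, none rose and 31 did not pass: the fall comprised Col4a1, Col5a2, Col6a3, Col8a1, Col16a1 and Col28a1. This is 16.2% of the chains, where 6.21% of all tested genes changed, 3.18% falling and 3.03% rising. A negative log2 fold change, with no test, was seen for 27 chains (73%) and for 48.7% of all tested genes, and the median was -0.45 for the chains and 0.01 for all tested genes. At an unadjusted p under 0.05 in edgeR, 15 chains were lower and 3 higher. The shares above are at an adjusted p and cannot be set against these counts. No share of all tested genes is given at the unadjusted threshold. DESeq2 called 9 lower and 2 higher, where it called 5.81% of all genes lower and 5.16% higher. With limma voom and sample weights 10 were lower and 2 higher, where 7.74% of all genes were lower and 6.8% higher. Both of those counts included all 6 chains that fell with edgeR. The higher ones were Col23a1 and Col25a1 with either tool. The count of 6 depended on single libraries. It was 2 without any 1 of intact 1, intact 2, intact 5, ORX 1, ORX 2 or ORX 5. It was 3 without ORX 4 and 11 without ORX 3. The count of all changed genes, 878 in the main fit, moved in the same direction. Without intact 1, 2 or 5 it was 483, 558 and 408, and without ORX 1, 2 or 5 it was 505, 434 and 447. It was 570 without ORX 4 and 1280 without ORX 3, so these shifts were not particular to collagen.

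The sum over the 37 chains was 4105 ± 1120 CPM in intact (SD, n = 5) and 2508 ± 671 CPM in ORX (SD, n = 6), with ranges of 2777 to 5215 and 1825 to 3669 CPM that overlap. Collagen took 0.292% to 0.482% of all counts in intact and 0.177% to 0.36% in ORX. Of the difference of 1596 CPM between the means, Col4a1 made up 45.9% and Col4a2 21.3%, and no other chain more than 6.25%. The type IV chains summed to 2676, 2816, 1176, 1082 and 2159 CPM in intact 1 to 5. In ORX 1 to 6 they summed to 792, 833, 1380, 957, 827 and 690 CPM. Intact 3 and 4 thus lay close to the ORX libraries and below ORX 3, while intact 1, 2 and 5 lay well above all of them. Intact 3 and 4 also had the lowest sums of the cortex markers, 37332 and 52118 CPM. These sums were 71568 to 82362 CPM in intact 1, 2 and 5 and 64439 to 97983 CPM in ORX. The part of this difference in the type IV values was not tested. The fibrillar chains summed to 587 to 1305 CPM in intact and 456 to 1086 CPM in ORX, with intact 4 the lowest of its group and ORX 3 the highest of its own.

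**Figure D1:**
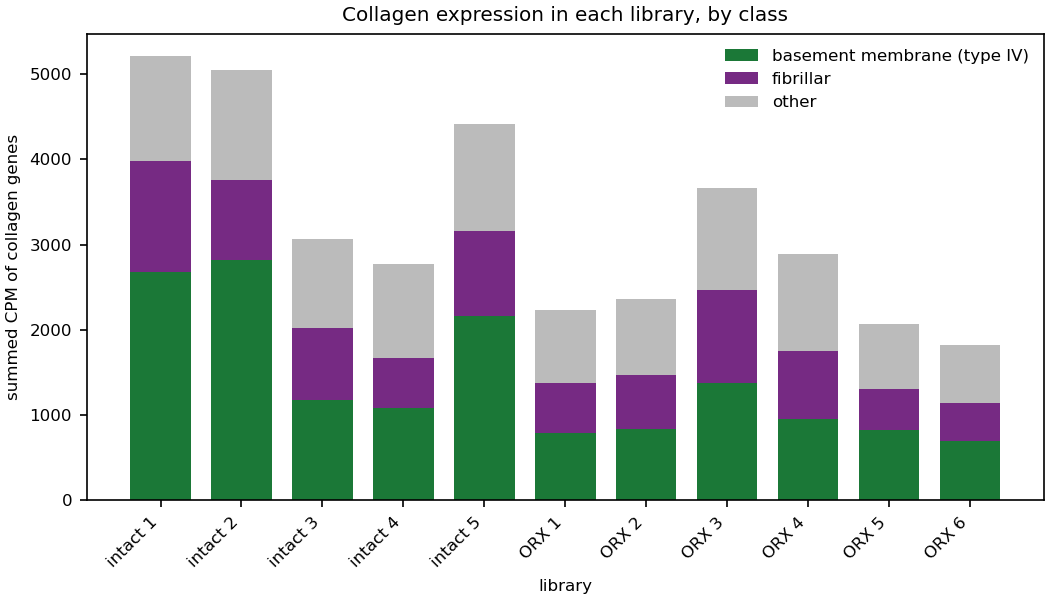
Each bar is 1 library, and its height is the summed CPM of the 37 collagen chains, split into the 6 type IV (basement membrane), 9 fibrillar and 22 other chains. The type IV part runs from 1082 to 2816 CPM in the intact libraries and from 690 to 1380 CPM in the ORX libraries, with ORX 3 the tallest ORX bar.

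Levels per length set the chains in order. Divided by the length of the longest transcript, Col4a1 led in intact with 186 ± 84.2 CPM per kilobase, followed by Col6a1 (115 ± 15.1), Col4a2 (111 ± 41.5), Col3a1 (47.6 ± 17.2) and Col1a2 (34.9 ± 12.1). In ORX, Col6a1 (100 ± 23.5 CPM per kilobase) stood before Col4a1 (75.4 ± 20.6) and Col4a2 (58.5 ± 16.1), then Col3a1 (29.7 ± 22.4) and Col5a3 (23.1 ± 7.05). The lowest of the 37 in intact were Col25a1, Col9a3 and Col11a1, at 0.453, 0.345 and 0.297 CPM per kilobase.

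Col4a1 encodes the alpha-1 chain that occurs as a pair in the common type IV trimer, with 1 alpha-2 chain from Col4a2. Col4a1 stood at 1635, 1850, 694, 609 and 1371 CPM in intact 1 to 5. In ORX it ranged from 407 to 769 CPM with a median of 455 CPM. Of the 6 ORX libraries 5 lay below every intact library, and ORX 3 lay above intact 3 and 4. Col4a1 fell by 1.30 ± 0.29 on the log2 scale (edgeR adjusted p = 0.0205), a mean of 1232 ± 557 CPM in intact and 499 ± 136 CPM in ORX. The call was lost without any 1 of 6 libraries (intact 1, 2 or 5, or ORX 1, 2 or 5), with an edgeR adjusted p of up to 0.0564 and a log2 fold change of -1.49 to -1.11 over all 11 omissions.

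Col4a2 was at 1020, 929, 440, 448 and 749 CPM in intact 1 to 5 and at 268 to 563 CPM in ORX, with a median of 349 CPM. Intact 3 and 4 were again the low intact libraries and ORX 3 the high ORX library. Its log2 fold change of -0.93 ± 0.26 missed the threshold narrowly (edgeR adjusted p = 0.0501). It passed with RLE scaling, with library totals, without a filter, with DESeq2 and with limma voom. It also passed without intact 3, intact 4 or ORX 3 (edgeR adjusted p = 0.0216 without ORX 3). Over the 11 omissions of 1 library the edgeR adjusted p reached 0.129.

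The other type IV chains, which form the trimers of specialised basement membranes such as that of the kidney glomerulus, were expressed at a small fraction of these levels and none passed. Col4a3 had 7.15 ± 1.70 CPM in intact and 9.26 ± 3.41 CPM in ORX (log2 0.37 ± 0.29), and its head-to-head neighbour Col4a4 had 9.19 ± 2.99 and 7.93 ± 4.36 CPM (log2 -0.21 ± 0.36). Col4a5 had 12.0 ± 3.97 and 15.9 ± 5.24 CPM (log2 0.40 ± 0.29), and its neighbour Col4a6 4.72 ± 2.88 and 3.81 ± 3.46 CPM (log2 -0.31 ± 0.66). Of the exonic bases of Col4a3, 5.65% overlap the antisense C430014B12Rik, and the strand setting of the counting is not given in the sources used here.

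**Figure D2:**
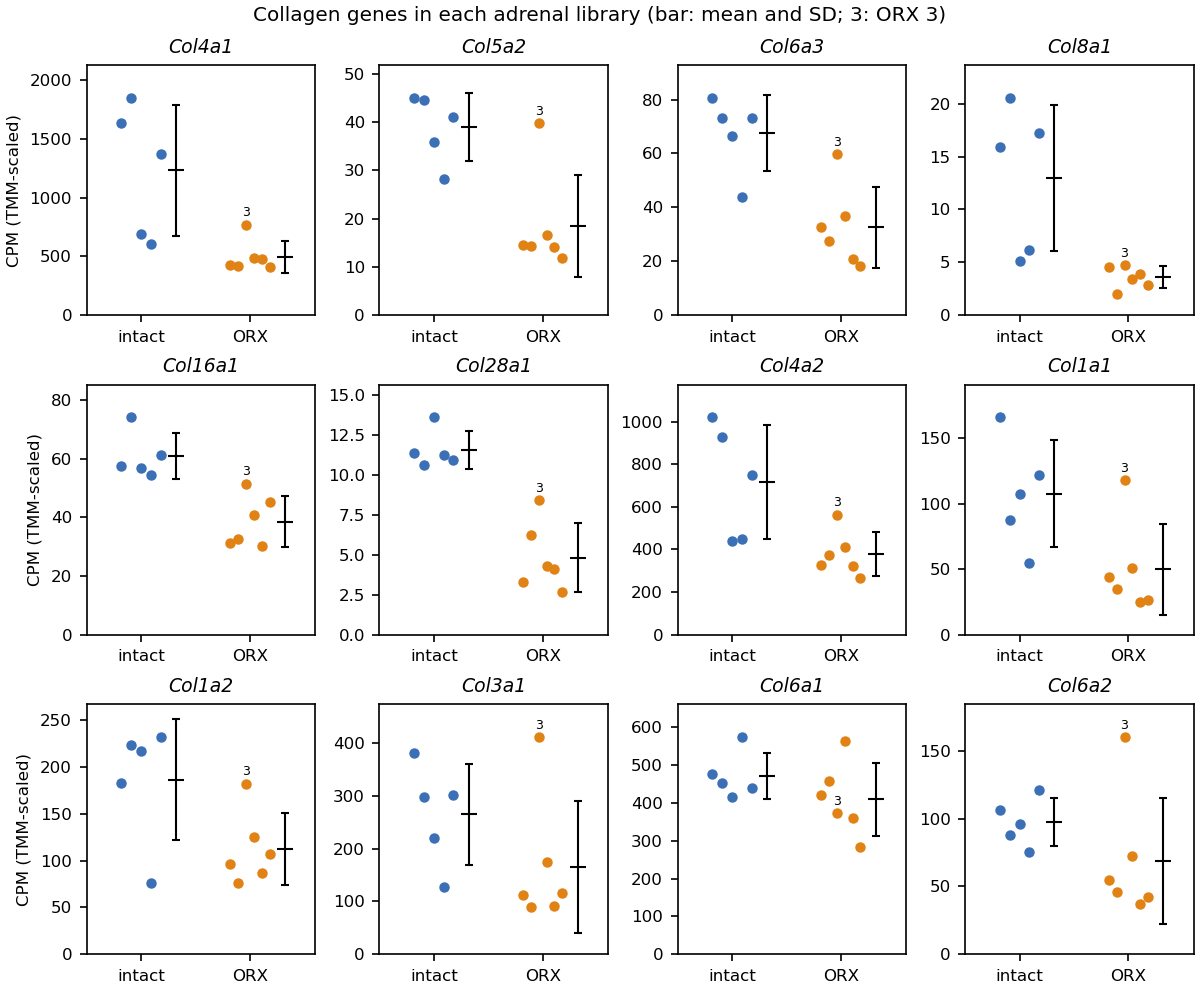
Each point is 1 library, with CPM on a vertical axis from 0, for the 6 chains that fell (Col4a1 to Col28a1) and 6 others, in intact (blue, n = 5) and ORX (orange, n = 6), with bars for mean and SD with ORX 3 marked. Col8a1, Col16a1 and Col28a1 separate the groups, and ORX 3 lies at or above the low intact libraries for Col4a1, Col5a2, Col6a3, Col1a1, Col3a1 and Col6a2.

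Among the fibrillar chains 1 fell and 8 did not pass. Col5a2, the alpha-2 chain of type V collagen, which sits inside type I fibrils and limits their width, was at 45, 44.6, 35.8, 28.1 and 40.9 CPM in intact 1 to 5. In ORX it ranged from 11.9 to 39.8 CPM with a median of 14.4 CPM. ORX 3 alone lay within the intact range, and the next ORX library was at 16.6 CPM. Col5a2 fell by 1.07 ± 0.29 on the log2 scale (edgeR adjusted p = 0.044), and without ORX 3 the edgeR adjusted p was 0.000357. Its call was lost without any 1 of 8 libraries (intact 1, 2 or 5, or ORX 1, 2, 4, 5 or 6; edgeR adjusted p up to 0.103) and after a correction for transcript length (edgeR adjusted p = 0.0588). Without ORX 6 the log2 fold change of Col5a2 was -0.97 (edgeR adjusted p = 0.0701).

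Type I collagen, the main fibre protein, and type III, its companion in elastic tissue, did not pass. Col1a1 was at 166, 87.8, 108, 55.1 and 122 CPM in intact 1 to 5 and at 25.2 to 118 CPM in ORX (median 39.3 CPM). Col1a2 was at 183, 224, 217, 76.2 and 232 CPM in intact 1 to 5 and at 76.3 to 182 CPM in ORX (median 102 CPM). Col3a1 was at 380, 297, 220, 127 and 301 CPM in intact 1 to 5 and at 89.4 to 412 CPM in ORX (median 113 CPM). In all 3 genes intact 4 was the lowest intact library and ORX 3 the highest ORX library, and for Col3a1 ORX 3 was the highest of all 11. Their log2 fold changes were -1.11 ± 0.39, -0.73 ± 0.28 and -0.68 ± 0.40 (edgeR adjusted p = 0.106, 0.139 and 0.338). Without ORX 3 each of the 3 was lower in ORX with a passing test (log2 -1.57, -0.92 and -1.19, edgeR adjusted p = 0.00607, 0.0476 and 0.0213). That omission takes out the highest ORX library of these genes, and it raised the count of all changed genes from 878 to 1280. Over the 11 omissions of 1 library the edgeR adjusted p reached 0.237, 0.291 and 0.552.

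The remaining fibrillar chains did not pass. Col5a1, the partner of Col5a2, was at 94.4 ± 25.4 CPM in intact and 84.5 ± 17.8 CPM in ORX (log2 -0.16 ± 0.20), and Col5a3, the third type V chain, at 106 ± 42.8 and 141 ± 43.1 CPM (log2 0.42 ± 0.27). Col27a1 was at 128 ± 53.4 and 93.6 ± 32.9 CPM (log2 -0.45 ± 0.28) and Col11a2 at 7.64 ± 1.72 and 4.42 ± 1.62 CPM (log2 -0.79 ± 0.28). Col11a1 was at 2.27 ± 0.472 and 2.56 ± 1.93 CPM (log2 0.17 ± 0.45), and this sign turned without ORX 3 or ORX 4.

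**Figure D3:**
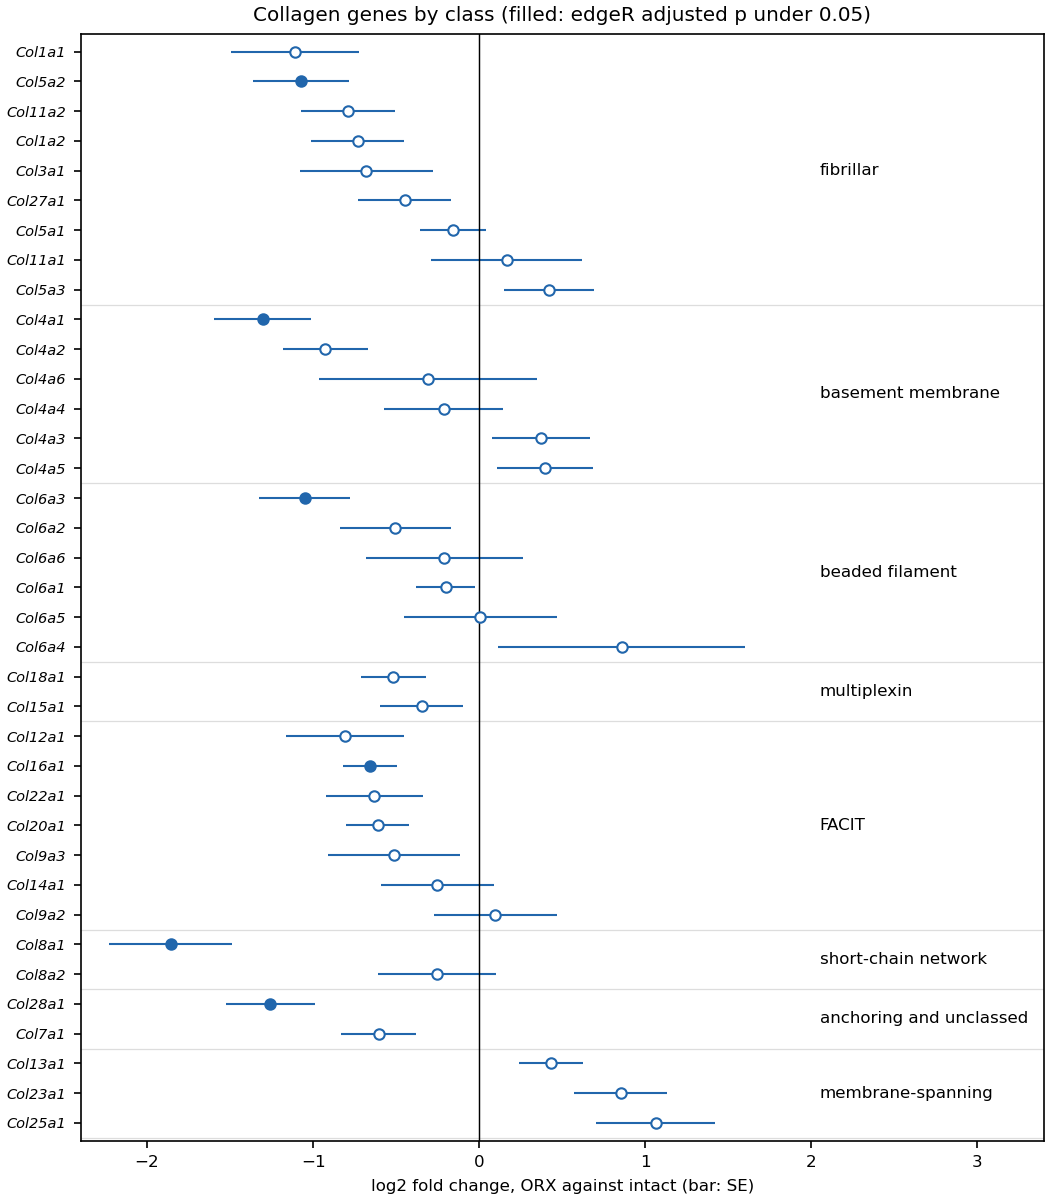
The horizontal axis is the log2 fold change in ORX, and circles with SE bars stand for 1 collagen gene each, grouped by class and filled where the edgeR adjusted p is under 0.05. The 6 filled circles lie between -1.86 (Col8a1) and -0.66 (Col16a1), and the 3 membrane-spanning chains lie to the right of 0.

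Type VI collagen forms beaded filaments around cells from trimers of an alpha-1, an alpha-2 and an alpha-3 or alpha-3-like chain, and its chains did not move alike. Col6a3 was at 80.6, 73.0, 66.4, 43.9 and 73.3 CPM in intact 1 to 5 and at 18.1 to 59.9 CPM in ORX (median 30.1 CPM). Only ORX 3 overlapped the intact range, and it overlapped through intact 4. Col6a3 fell by 1.05 ± 0.27 on the log2 scale (edgeR adjusted p = 0.0387), a call lost without any 1 of 8 libraries (intact 1, 2 or 5, or ORX 1, 2, 4, 5 or 6; edgeR adjusted p up to 0.0948). Without ORX 6 its log2 fold change was -0.93 (edgeR adjusted p = 0.0529).

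Col6a1, by contrast, was at 477, 452, 415, 575 and 439 CPM in intact 1 to 5 and at 283 to 565 CPM in ORX (median 396 CPM; log2 -0.20 ± 0.18, edgeR adjusted p = 0.532). The lowest library was ORX 6, and the groups overlapped widely. Col6a2, which lies 85161 bases from Col6a1 on chromosome 10, was at 106, 88.3, 96.2, 75.4 and 121 CPM in intact 1 to 5 and at 36.9 to 160 CPM in ORX (median 50.4 CPM; log2 -0.50 ± 0.33, edgeR adjusted p = 0.397). ORX 3 was the highest of all 11 libraries for Col6a2, and the other ORX libraries, up to 72.2 CPM, lay below every intact library. Without ORX 3 Col6a2 was lower in ORX (log2 -0.95, edgeR adjusted p = 0.0113), and over the 11 omissions of 1 library the edgeR adjusted p reached 0.6. The alpha-3-like chains Col6a4, Col6a5 and Col6a6, neighbours on chromosome 9, had log2 fold changes of 0.86 ± 0.74, 0.01 ± 0.46 and -0.21 ± 0.47, and ORX 3 had 52.0 CPM of Col6a5 against 7.39 to 15.7 CPM in the other ORX libraries.

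Ratios of 2 chains do not depend on the scaling of a library. They are given here for pairs that assemble together or belong to 1 type, chosen after the values were seen, as a description with no test. The ratio of Col6a1 to Col6a3 counts was 7.49 ± 3.13 in intact and 14.1 ± 4.14 in ORX. ORX 3 at 6.23 lay near most intact libraries, and intact 4 at 13.1 near the ORX libraries. Col5a1 to Col5a2 was 2.54 ± 1.02 in intact and 5.21 ± 1.67 in ORX, with ORX 3 at 2.22 and intact 4 at 4.18 again apart from their groups. Col4a1 to Col4a2 was 1.67 ± 0.244 and 1.33 ± 0.161, and Col4a3 to Col4a4 was 0.8 ± 0.119 and 1.27 ± 0.371. Col6a2 to Col6a3 was 1.47 ± 0.215 and 2.02 ± 0.405, and Col1a1 to Col1a2 was 0.609 ± 0.206 and 0.418 ± 0.143. Col6a1 to Col6a2 was 5.03 ± 1.54 and 7.38 ± 2.78, and its ORX range of 2.32 to 9.98 enclosed the intact range of 3.63 to 7.63. Of chains of 1 type, Col4a5 to Col4a1 was 0.0115 ± 0.00605 and 0.0327 ± 0.012, and Col5a3 to Col5a1 was 1.13 ± 0.357 and 1.65 ± 0.231. In each of these pairs the ranges of the groups overlapped.

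**Figure D4:**
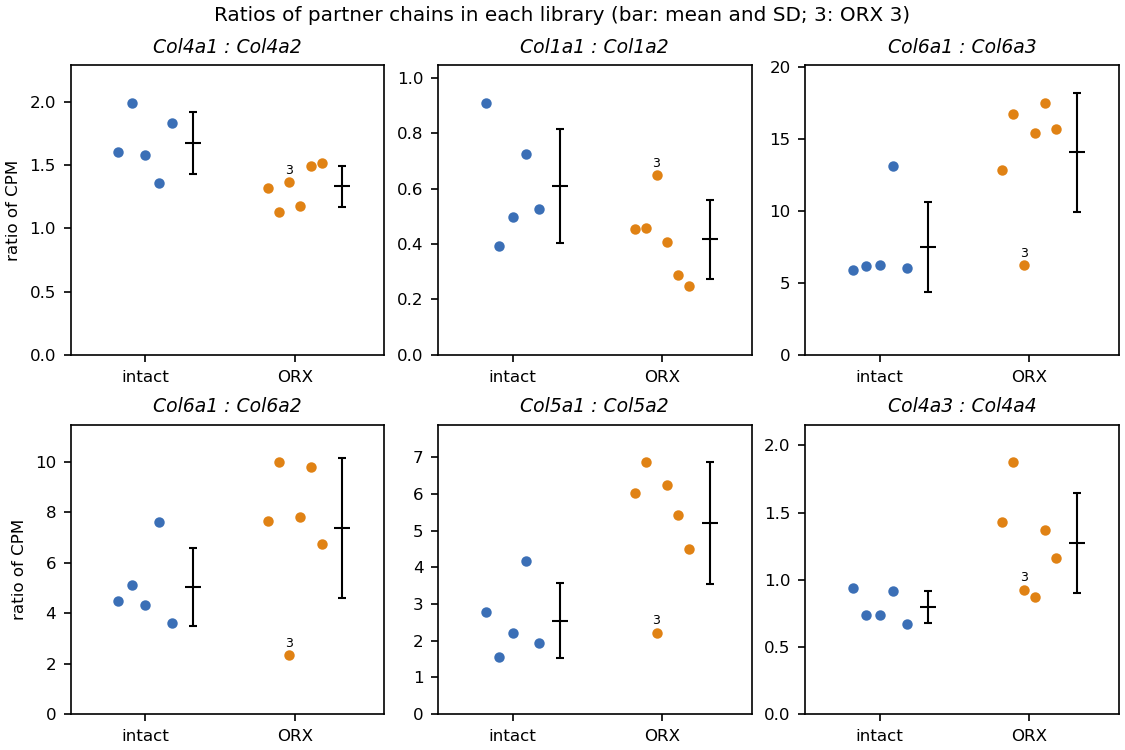
Each point is the ratio of the CPM of 2 collagen chains in 1 library (vertical axis from 0), in intact (blue) and ORX (orange), with bars for mean and SD and ORX 3 marked. For Col6a1 to Col6a3 the intact libraries lie near 6 except intact 4 at 13.1, and the ORX libraries lie at 12.8 or above except ORX 3 at 6.23.

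The FACIT collagens sit on the surface of fibrils. Col16a1 was at 57.5, 74.1, 56.7, 54.5 and 61.3 CPM in intact 1 to 5 and at 30.2 to 51.5 CPM in ORX (median 36.7 CPM), with every ORX library below every intact library. It fell by 0.66 ± 0.16 on the log2 scale (edgeR adjusted p = 0.0311). The call was lost without any 1 of 7 libraries (intact 1, 2 or 5, or ORX 1, 2, 4 or 5; edgeR adjusted p up to 0.0787) and after the correction for transcript length (0.0919). Col12a1 and Col14a1, found in dense connective tissue, were at log2 -0.81 ± 0.35 and -0.25 ± 0.34, Col20a1 at -0.61 ± 0.19 (edgeR adjusted p = 0.074), Col22a1 at -0.63 ± 0.29, Col9a3 at -0.51 ± 0.40 and Col9a2 at 0.10 ± 0.37. Col9a3 shares 6.07% of its exonic bases with the antisense gene Tcfl5.

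Col8a1, a short-chain collagen of vessel walls and endothelial matrix, had the largest fall of the 37 chains. It was at 15.9, 20.6, 5.10, 6.19 and 17.2 CPM in intact 1 to 5 and at 2.01 to 4.72 CPM in ORX (median 3.67 CPM). Every ORX library lay below every intact library, and intact 3 and 4 were the low intact libraries, as for Col4a1. Col8a1 fell by 1.86 ± 0.37 on the log2 scale (edgeR adjusted p = 0.0107), and kept the call in each of the 11 omissions of 1 library (edgeR adjusted p up to 0.0361). Col8a2, its relative, was at 5.23 ± 2.87 CPM in intact and 4.39 ± 1.04 CPM in ORX (log2 -0.26 ± 0.36).

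Col28a1, a chain with a domain structure like that of type VI, known from peripheral nerve, was at 11.4, 10.6, 13.6, 11.2 and 10.9 CPM in intact 1 to 5 and at 2.64 to 8.40 CPM in ORX (median 4.17 CPM). The groups did not overlap, and the intact libraries lay closer together than for the other chains that fell. Col28a1 fell by 1.26 ± 0.27 on the log2 scale (edgeR adjusted p = 0.016) and passed in each of the 11 omissions (edgeR adjusted p up to 0.0445). No overlap between groups, all ORX lower, was thus seen for Col8a1, Col16a1 and Col28a1, 8.11% of the chains, against 2.36% of all tested genes. The opposite layout, all ORX higher, was seen for 0 chains and 2.92% of all tested genes.

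Chains at the edge of basement membranes did not pass. Col18a1, the source of endostatin, was at 175, 207, 114, 109 and 197 CPM in intact 1 to 5 and at 89.3 to 141 CPM in ORX (median 112 CPM; log2 -0.52 ± 0.19, edgeR adjusted p = 0.134). Here too intact 3 and 4 lay within the ORX range. Its relative Col15a1 was at log2 -0.35 ± 0.25, and Col7a1, of the anchoring fibrils, at -0.61 ± 0.23 (edgeR adjusted p = 0.131).

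The 3 membrane-spanning chains, which face the outside with their collagen domain, all had positive log2 fold changes without passing. Col25a1, first known from neurons, was at 1.31, 2.89, 3.78, 4.18 and 3.03 CPM in intact 1 to 5 and at 2.34 to 9.34 CPM in ORX (median 6.70 CPM; log2 1.06 ± 0.36, edgeR adjusted p = 0.0954). Only ORX 6 lay within the intact range. Without it Col25a1 was higher in ORX (log2 1.24, edgeR adjusted p = 0.0312), as it was after the correction for transcript length (0.0413). Col25a1 passed in no other omission of 1 library (edgeR adjusted p up to 0.187). Col23a1 was at 6.71, 17.4, 7.75, 6.19 and 15.2 CPM in intact 1 to 5 and at 14.7 to 23.1 CPM in ORX (median 20.1 CPM; log2 0.85 ± 0.28, edgeR adjusted p = 0.0877). Intact 2 and 5 reached the ORX range. Col23a1 was higher in ORX without intact 2, its highest intact library (edgeR adjusted p = 0.0399). It passed in no other omission of 1 library (edgeR adjusted p up to 0.189). Col13a1 was at 10.9 ± 2.84 and 14.7 ± 1.82 CPM (log2 0.44 ± 0.19, edgeR adjusted p = 0.196).

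**Figure D5:**
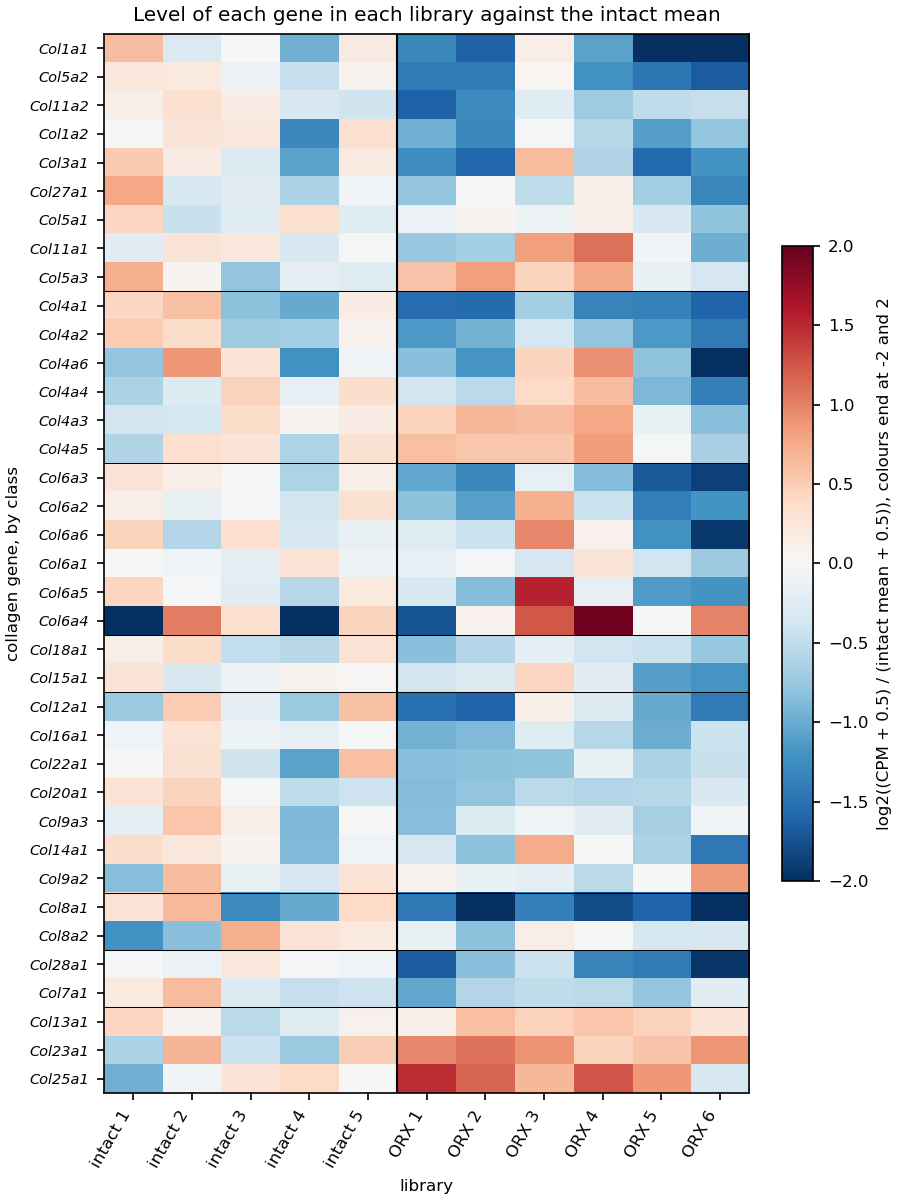
Each cell is the level of 1 collagen gene (rows, by class) in 1 library (columns) as log2 of CPM plus 0.5 against the intact mean plus 0.5, red above and blue below. The ORX 3 column is paler or redder than the other ORX columns for many fibrillar and type VI chains, and the intact 4 column is bluer than the other intact columns.

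Single libraries shaped the collagen values. ORX 3 was the highest ORX library for 19 of the 37 chains (51.4%) and the lowest for 0, while it was the highest for 19.0% of all tested genes. Intact 4 was the lowest intact library for 22 chains, against 20.0% of all tested genes. ORX 6 was the lowest ORX library for 19 chains, against 30.4% of all tested genes. ORX 3 also had the highest summed levels of the ORX group for the 14 markers of fibroblasts and capsule (1096 CPM, lowest ORX library 489), the 13 of adipose tissue (20420 CPM, lowest 4868), the 12 of pericytes and smooth muscle (584 CPM, lowest 273) and the 17 of the medulla (18856 CPM, lowest 7682). It was the highest ORX library for the endothelial markers too (1287 CPM, lowest 1069), and the lowest for the cortex markers (64439 CPM, highest 97983). The part of these cell types in the collagen values was not tested. In whole glands, fewer cells of a type and less RNA per cell cannot be told apart.

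Markers of endothelium, pericytes and fibroblasts, which make collagens, had 1 fall per list, where 3.18% of all tested genes fell. In that order, a negative log2 fold change was seen for 12 of 14, 10 of 12 and 9 of 14 markers, against 48.7% of all tested genes. The medians were -0.25, -0.79 and -0.20, against 0.01 for all tested genes. Every ORX library lay below every intact library for 1, 3 and 0 of them, against 2.36% of all tested genes. Of 14 endothelial markers 1 fell and 13 did not pass: Eng, a TGF-beta co-receptor of endothelium, fell by 0.55 ± 0.13 on the log2 scale (edgeR adjusted p = 0.0299, up to 0.0856 and lost without any 1 of intact 1, 2 or 5 or ORX 1, 2 or 5), and Pecam1 was at 119 ± 13.2 CPM in intact and 91.4 ± 10.3 CPM in ORX (log2 -0.39 ± 0.12, edgeR adjusted p = 0.083). The endothelial sum was 1176 to 1672 CPM in intact and 1069 to 1287 CPM in ORX. Relative to Pecam1, Col4a1 stood at 13.1, 14.6, 7.23, 4.92 and 10.9 in intact 1 to 5 and between 4.48 and 7.12 in ORX. Col4a1 was thus lower per Pecam1 in all ORX libraries than in intact 1, 2 and 5, and in the same range as in intact 3 and 4. Of 12 pericyte and smooth muscle markers 1 fell (Mcam, log2 -0.76 ± 0.16, edgeR adjusted p = 0.0146), 11 did not pass, and Acta2 was at -0.997 ± 0.46 (edgeR adjusted p = 0.212). The sum of these 12 was 492 to 680 CPM in intact and 273 to 584 CPM in ORX. Of 14 markers of fibroblasts and capsule 1 fell (Pdgfrb, -0.81 ± 0.18, edgeR adjusted p = 0.0186, lost without intact 5 or ORX 5), 13 did not pass, and Pdgfra was at -0.55 ± 0.41 (edgeR adjusted p = 0.45). Their sum was 659 to 979 CPM in intact and 489 to 1096 CPM in ORX. With the mean log2 level of the endothelial markers as a covariate of the edgeR fit, all 6 collagen calls were lost, and 0.53% of all tested genes were lower. Col4a1 then had a log2 fold change of -0.71 and Col8a1 of -1.34. With the medulla markers the 6 calls were also lost, 0.127% of all tested genes were lower, and these values were -0.35 and -1.12. Both scores themselves differed between the groups. The endothelial score was 6.19 to 6.48 in intact and 5.83 to 6.22 in ORX. The medulla score was 7.32 to 8.05 in intact and 6.51 to 7.33 in ORX. Calls lost in these fits therefore cannot tell the score from the group, and the part of these cells was not tested. With the adipose markers 2.18% of all tested genes were lower, and Col4a1 and Col8a1 kept their calls (edgeR adjusted p = 0.0312 and 0.0154) while the other 4 did not.

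The counts of the next lists stand beside 3.18% of all tested genes that fell and 3.03% that rose. Of 17 medulla markers 4 fell (Cartpt, Npy, Ret and Slc18a2) and 13 did not pass. A negative log2 fold change was seen for 15 of the 17 (median -0.55), against 48.7% of all tested genes. The sums were 13652 to 33148 CPM in intact and 7682 to 18856 CPM in ORX, with Th at log2 -1.25 ± 0.36 (edgeR adjusted p = 0.0565). Of 10 Schwann and sustentacular markers 1 fell (Gfap, -2.53 ± 0.52, edgeR adjusted p = 0.0124), with Sox10 at -0.50 ± 0.27. A negative log2 fold change was seen for 8 of the 10 (median -0.68). Their sums overlapped, with 66.6 to 103 CPM in intact and 67.6 to 82.7 CPM in ORX. Their mean log2 level did not overlap, with 2.21 to 2.54 in intact and 1.66 to 1.93 in ORX. All 13 adipose markers missed the threshold, but all 13 had a negative log2 fold change (median -0.58). Adipoq was at -0.35 ± 0.36, and the sums ran from 7797 to 19726 CPM in intact and from 4868 to 20420 CPM in ORX. Of 9 chondrocyte markers 4 were tested, 1 fell (Acan, aggrecan, -3.95 ± 0.57, edgeR adjusted p = 0.00154), and 2 had no count, while Col2a1, the cartilage collagen, had 7 counts in all. Of 12 cortex markers 3 rose (Mc2r, Hsd3b1 and Cyp21a1) and 9 did not pass, with 7 positive and 5 negative log2 fold changes (median 0.21). For 3 of the 12 every ORX library lay above every intact library, against 2.92% of all tested genes. The 10 macrophage markers missed the threshold too.

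Among genes that build and cross-link collagen a few passed, where 3.18% of all tested genes fell and 3.03% rose. Of 22 genes of chain modification and folding 2 fell and 20 did not pass (median log2 -0.17). Serpinh1, the collagen chaperone HSP47, stood at 622 ± 257 CPM in intact and 278 ± 74.5 CPM in ORX and fell by 1.16 ± 0.28 on the log2 scale (edgeR adjusted p = 0.0265), and P4ha2, a proline hydroxylase subunit, by 0.81 ± 0.22 (edgeR adjusted p = 0.0445). Of 13 tested genes of procollagen processing and cross-linking 3 fell, 1 rose and 9 did not pass (median -0.22). The cross-linking oxidases Lox and Loxl4 fell by 2.10 ± 0.45 and 1.86 ± 0.41 on the log2 scale (edgeR adjusted p = 0.0152 and 0.0173). Adamts2, which removes the amino-terminal propeptide of fibrillar procollagen, fell by 1.09 ± 0.26 and the related Adamts3 rose by 0.97 ± 0.27 (edgeR adjusted p = 0.028 and 0.0478). Lox and Loxl4 lost the call only without intact 5 among the 11 omissions (edgeR adjusted p = 0.0528 and 0.0569), and Adamts3 kept it only without ORX 3 or ORX 6 (otherwise up to 0.118). Serpinh1 and Adamts2 lost it without any 1 of intact 1, 2 or 5 or ORX 1, 2 or 5 (up to 0.0751 and 0.0755), Adamts2 also after the correction for transcript length (0.0691), and P4ha2 without any 1 of these or ORX 4 (up to 0.122).

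Of 9 tested collagen receptors 1 fell and 8 did not pass (median -0.37). Itga1, which pairs with the beta-1 integrin to bind type IV collagen, stood at 32.6 ± 7.24 CPM in intact and 15.7 ± 3.98 CPM in ORX with no overlap between groups, fell by 1.06 ± 0.21 on the log2 scale (edgeR adjusted p = 0.00976) and kept the call in each of the 11 omissions (up to 0.0324). Of 17 tested non-collagen partners in basement membranes 1 fell and 16 did not pass (median -0.51): Lamb1, the laminin beta-1 chain, fell by 0.90 ± 0.23 (edgeR adjusted p = 0.0364), a call lost without any 1 library other than intact 3, intact 4 or ORX 3 (up to 0.0984) and, without ORX 6, at a log2 fold change of -0.85 (0.0598). It was lost too after the correction for transcript length (edgeR adjusted p = 0.0551). Of 20 partners of fibrils 1 fell (Fbln2, a fibulin, -0.84 ± 0.21, edgeR adjusted p = 0.0344, lost without the same libraries as Lamb1, up to 0.0892) and 19 did not pass (median -0.42). Of 18 genes of TGF-beta signalling, a main inducer of collagen genes, 2 fell and 16 did not pass (median -0.38). Among those that fell was the latency protein gene Ltbp2, by 1.33 ± 0.27 on the log2 scale (edgeR adjusted p = 0.0118), which passed in each of the 11 omissions (edgeR adjusted p up to 0.0347).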

How the data were processed

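Libraries of 11 adrenal samples were made from 300 ng RNA by TruSeq, per the labels' protocols. The authors deposited raw read counts per gene symbol, not normalized; tools named in the submitters' processing notes are Subread 1.5.1 and bcl2fastq 1.8.4, with build mm10. The strand setting and annotation were not given in the sources used. The table holds 2 identical copies, of which the first was used. Libraries of a group all differed by more than counting error (chi-square over its degrees of freedom at least 25.5).

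Counts were filtered by filterByExpr (minimum count 10, minimum total 15), TMM-scaled, and fitted in edgeR 4.0.16 (R 4.3.3; glmQLFit, glmQLFTest, no covariate). Each SE is the log2 fold change over the root of F. The test was checked on simulated counts. Alternatives used RLE or no scaling, other filters, DESeq2 1.42.0, limma 3.58.1 voom, the sample number as a block, offsets for transcript length (lowess, span 0.3), marker scores as covariates and libraries left out. Positions and transcript lengths are from GENCODE M21 (GRCm38), promoter sequences from RefSeq. All 217 genes of the 16 lists were in the table, 9 under another symbol. The chains named in full were those past the threshold, those without overlap between groups, and Col1a1, Col1a2, Col3a1, Col4a1, Col4a2, Col6a1, Col6a2, Col6a3 and Col18a1; Col25a1 and Col23a1 were added after their values were seen. The members and lists were chosen with earlier results of these data known. The values of 1 listed gene that is no collagen are not reported here.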

Additional observations from a re-analysis of the deposited data

Results flagged for a closer look

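A single library lay far from the others of its group for 4 of the 74 combinations of a collagen gene and a group, where chance gives about 1 in 20. Col1a2 in intact 4 was at 76.2 CPM, against 183 to 232 CPM in the other intact libraries. Col4a1 in ORX 3 was at 769 CPM, against 407 to 485 CPM in the other ORX libraries, and Col5a2 in ORX 3 was at 39.8 CPM, against 11.9 to 16.6 CPM. Col28a1 in intact 3 was at 13.6 CPM, against 10.6 to 11.4 CPM in the other intact libraries.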

How the results depend on the processing

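The count of 878 changed genes became 1737 with DESeq2, 2056 with limma voom, 78, 546 and 180 with a medulla, adipose or endothelium score as covariate, and 1362 without ORX 3 and ORX 6 together; leaving out 1 library gave 408 to 1280. The 6 lower collagen genes became 10 with voom, 0, 2 and 0 with the medulla, adipose and endothelium scores, and 11 without ORX 3 and ORX 6; leaving out 1 library gave 2 to 11. The 0 higher ones became 2 with DESeq2, 2 with voom, 1 with length offsets, 1 without intact 3 and ORX 6, and 1 without ORX 3 and ORX 6; leaving out 1 library gave 0 to 1. The endothelium score and the omission of ORX 3 with ORX 6 were chosen after seeing the data. The sample numbers did not pair the samples (correlations of deviations -0.28 to 0.18, own number highest for 1 of 5); with the replicate block 416 genes changed and 1 collagen gene was lower (Col28a1), and with block and length offsets 435 and 1. The median log2 fold change of the chains, -0.45 in the main fit, stayed below 0 in all 25 alternatives, but its size did not hold. It came near 0 with the endothelium score (middle chain Col4a4, -0.051) and with the medulla score (middle chain Col4a3, -0.083). The cause of these shifts was not tested.

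The sign of some log2 fold changes turned, all of genes that had not passed except Npy. Npy and Th are themselves medulla markers, and Adipoq is an adipose marker. Their signs turned only in a fit with the score that contains them, so these turns say nothing about their direction in ORX. With the adipose score the values were Col6a6 0.091, Col8a2 0.34, Adipoq 0.20. With the endothelium score the values were Col4a6 0.55, Col5a1 0.26, Col6a1 0.093, Col6a6 0.56, Col9a2 -0.42, Col14a1 0.42, Col15a1 0.21, Col27a1 0.078, Pdgfra 0.031. With voom the values were Col6a5 -0.44, Col8a2 0.0048. With the medulla score the values were Col3a1 0.50, Col4a3 -0.083, Col4a6 0.040, Col6a2 0.16, Col6a6 0.26, Col7a1 0.063, Col9a3 0.22, Col14a1 0.36, Col18a1 0.013, Col25a1 -0.13, Col27a1 0.0021, Npy 0.29, Pdgfra 0.32, Th 0.20. Without a filter the values were Col6a5 -0.012. With the replicate block the values were Col6a5 -0.18, Col9a2 -0.10. With the block and length offsets the values were Col4a4 0.066, Col5a1 0.12, Col6a5 -0.011, Col6a6 0.016, Col9a2 -0.14. With length offsets the values were Col5a1 0.073. Without ORX 3 and ORX 6 together the values were Col6a5 -0.58, Col9a2 -0.16. Without intact 3 and ORX 6 together the values were Col4a4 0.083, Col4a6 0.016, Col6a6 0.094, Col8a2 0.039, Col9a2 -0.24.

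When 1 library was left out, the values with a turned sign ranged from -0.82 to 0.055 for Col4a6, -0.70 to 0.17 for Col6a5, -0.67 to 0.0018 for Col6a6, -0.47 to 0.02 for Col8a2, -0.18 to 0.35 for Col9a2 and -0.22 to 0.34 for Col11a1. Genes of a few CPM are limited by depth.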
